A study of Mus musculus with 60 samples.

Results

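RNA levels of 10 Notch pathway genes were followed in 60 RNA sequencing libraries of mouse mammary cells given TGFβ1. The genes were taken by symbol from the count tables and comprise the ligands Jag1 and Jag2, the receptors Notch1, Notch2 and Notch3, the target genes Hes1, Hey1, Heyl and Nrarp, and the glycosyltransferase gene Lfng. All 10 were listed, among 54532 genes in each of the NMuMG tables and 55487 in the 4T1 table. After genes with low counts were left out, 9 could be tested in experiment 1 (all but Heyl) and 8 in experiments 2 and 3 (neither Heyl nor Notch3). NMuMG is an epithelial line from normal mouse mammary gland that turns mesenchymal under TGFβ1, and 4T1 is a mouse line that serves as a model of triple negative breast cancer. In experiment 1, NMuMG cells labelled sgCT (the control) and sgPBRM1 (PBRM1 knockout) received 5 ng/ml TGFβ1 for 0, 24, 48 or 72 h. In experiment 2, NMuMG cells labelled pLKO (the control) and shATF3 (ATF3 knockdown) went through the same 4 times, and in experiment 3, 4T1 cells labelled pLKO (the control) and shPBRM1 (PBRM1 knockdown) were untreated or held for 4 d with 5 ng/ml TGFβ1. PBRM1 is a subunit of the PBAF chromatin remodelling complex, and ATF3 is a stress-induced transcription factor. Each of the 20 groups had 3 libraries, which the labels call biological replicates, and the labels do not say whether an altered line was 1 clone or a pool.

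Notch receptors are single-pass membrane proteins that are activated by Jagged or Delta-like ligands on a neighbouring cell. Ligand binding exposes the receptor to cleavage by ADAM proteases and then by γ-secretase, and the freed intracellular domain enters the nucleus, where it joins RBPJ and Mastermind-like coactivators and switches on genes such as Hes1, Hey1 and Nrarp. In the mammary gland the pathway is known for its part in luminal cell fate, and in epithelial cells Jag1 and Hey1 have been described as genes that TGFβ can induce.

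The promoter windows of Jag1, Lfng and Nrarp are shown as examples of genes whose change over 72 h of TGFβ1 differed between PBRM1 knockout and control NMuMG cells. The choice was made with that result known, and the window of Notch2, whose change also differed, held none of the motifs searched. Each window runs from 250 bases before to 50 bases after the RefSeq transcription start, 5′ to 3′ on the gene's strand, in build GRCm38.p6. Capitals mark 3 motifs searched on both strands, TGGGAA (the core of the RBPJ motif), CACGTG (an E-box) and CAGAC (a core of the SMAD-binding element).
Jag1, chr2:137116471-137116770, minus strand: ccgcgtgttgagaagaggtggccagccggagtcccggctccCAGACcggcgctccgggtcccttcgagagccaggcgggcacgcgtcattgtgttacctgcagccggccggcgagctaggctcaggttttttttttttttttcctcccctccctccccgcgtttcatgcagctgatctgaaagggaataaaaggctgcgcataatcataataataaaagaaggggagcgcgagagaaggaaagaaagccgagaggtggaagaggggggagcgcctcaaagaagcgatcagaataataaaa
Lfng, chr5:140607091-140607390, plus strand: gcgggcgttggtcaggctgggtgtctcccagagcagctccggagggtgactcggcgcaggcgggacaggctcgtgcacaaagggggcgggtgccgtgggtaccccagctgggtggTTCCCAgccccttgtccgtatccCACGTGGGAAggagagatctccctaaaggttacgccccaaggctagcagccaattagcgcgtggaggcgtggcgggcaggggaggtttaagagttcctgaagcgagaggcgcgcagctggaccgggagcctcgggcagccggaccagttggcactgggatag
Nrarp, chr2:25180508-25180807, plus strand: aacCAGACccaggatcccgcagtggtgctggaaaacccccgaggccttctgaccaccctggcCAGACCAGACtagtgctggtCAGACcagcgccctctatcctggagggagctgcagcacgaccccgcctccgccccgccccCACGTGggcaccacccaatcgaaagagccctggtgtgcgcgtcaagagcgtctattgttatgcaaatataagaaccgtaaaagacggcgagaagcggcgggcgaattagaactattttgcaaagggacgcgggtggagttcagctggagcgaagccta
The Jag1 window held 1 CAGAC and neither of the other motifs. The Lfng window held 2 TGGGAA, the first as its reverse complement, and the second of them overlapped the only CACGTG by 2 bases. The Nrarp window held 4 CAGAC and 1 CACGTG. Among 32851 promoter windows of the same length, 25.6% held TGGGAA at least once and 3.79% at least 2 times, 7.2% held CACGTG, and 49.6% held CAGAC at least once and 16.24% at least 2 times. RefSeq windows matched 7 of the 10 genes; those of Notch1 and Jag2 held no match either, the Notch3 window held 2 CAGAC, and Hes1, Hey1 and Heyl had no entry. These matches describe the letters of each window and not binding.

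The libraries of experiment 1 totalled 16.2 to 21.9 M counts each. Those of experiment 2 totalled 15.6 to 22.7 M and those of experiment 3, from 4T1, 22 to 31.1 M. Pbrm1, the gene targeted in experiments 1 and 3, stood at 115 ± 0.370 CPM in sgCT and 97.2 ± 3.37 CPM in sgPBRM1 at 0 h, and at 236 ± 3.20 CPM and 28.3 ± 1.77 CPM in the 4T1 lines without TGFβ1 (mean ± SD over 3 libraries; CPM, counts scaled to 1 M). Atf3 was not lower at 0 h in the libraries labelled ATF3 knockdown (12.3 ± 1.44 CPM against 9.95 ± 0.820 CPM in pLKO), which goes against the label, so these are called the libraries labelled shATF3. At 24 h of TGFβ1 it stood at 17.8 ± 0.930 CPM in them against 26.9 ± 2.21 CPM in pLKO. The summed level of 5 endothelial markers was at most 1.28 CPM in any NMuMG library and 0.791 CPM in any 4T1 library, and that of 4 leukocyte markers was at most 0.571 and 0.218 CPM. Summed epithelial markers were 4262 to 12320 CPM in NMuMG and 4035 to 4975 CPM in 4T1, although Esrp1, an epithelial splicing regulator, had 0 counts in every NMuMG group but sgPBRM1 at 72 h. Epcam had 0 counts in the libraries labelled shATF3 at 72 h. The 5 mesenchymal markers summed to 2608 to 2686 CPM in sgCT at 0 h, 10470 to 11470 CPM at 72 h, and 3301 to 3441 and 14100 to 14920 CPM in sgPBRM1. The epithelial sum was 11030 to 11330 CPM in sgCT and 8332 to 8744 CPM in sgPBRM1 at 0 h, and 9505 to 9742 and 6412 to 6587 CPM at 72 h. In experiment 2 at 0 h it was 7105 to 7471 CPM in pLKO and 5630 to 5730 CPM in the libraries labelled shATF3, and the mesenchymal sum was 3488 to 3613 and 4260 to 4715 CPM. At 24 h the epithelial sum was higher, at 9337 to 9786 CPM in pLKO and 8861 to 9348 CPM in the libraries labelled shATF3. At 72 h it was 5999 to 6232 and 4262 to 4450 CPM. In 4T1 the mesenchymal sum was 4808 to 4960 CPM in untreated and 9582 to 9920 CPM in treated pLKO cells. In shPBRM1 it was 4986 to 5082 and 8571 to 8836 CPM, with Cdh2 at 0 in all 4 groups. Single markers did not all move with their sum. At 72 h against 0 h, 1 of 5 mesenchymal markers was lower in every NMuMG line but sgCT. Of the epithelial markers tested, 1 of 6 was higher in sgCT and in sgPBRM1, and 1 of 5 in pLKO. In 4T1 pLKO cells 3 epithelial markers rose and 3 fell with TGFβ1, and in shPBRM1 4 rose and 3 fell. Only 3 of the 5 mesenchymal markers could be tested in 4T1. The 3 fibroblast markers (Pdgfra, Dcn and Lum) summed to at most 2.05 CPM in NMuMG. In 4T1 they summed to 13.3 to 14.4 CPM in untreated and 23.8 to 27.0 CPM in treated pLKO cells, and to 22.0 to 22.2 and 29.4 to 33.5 CPM in shPBRM1, with Lum at 0 in all 4 groups and Dcn in 3 of them. Some of these marker sums moved with the same groups as several Notch genes. In 4T1 the fibroblast sum moved with the same groups as Jag1 and Hes1. The mesenchymal sum there rose with TGFβ1 but was lower in treated shPBRM1 than in treated pLKO cells. The part of the marker sums in the results was not tested. The common biological coefficient of variation was 2.88% in experiment 1, 7.59% in experiment 2 and 2.95% in experiment 3, so experiment 2 is the least precise. Over all genes, 2 of its libraries labelled shATF3 stood apart from their groups: replicate 2 at 72 h (chi-square per degree of freedom 17.3 and 16 against the others, 5.33 between them) and replicate 1 at 0 h (9.96 and 10.1, against 3.7). Control libraries varied as well. In pLKO NMuMG cells at 72 h, replicates 2 and 3 gave 13.1, and the other pairs 7.76 and 5.04. In untreated 4T1 pLKO cells, replicate 2 gave 5.92 and 5.54, against 1.85. The p-values rest on the spread between libraries within groups, pooled over all groups of an experiment and moderated across genes. An exact test of 3 against 3 libraries could not go below 0.10. In bulk RNA, fewer cells that express a gene and less RNA of it per cell cannot be told apart. NMuMG cells had no later untreated time, so the time in culture and TGFβ1 cannot be told apart in their time courses. In 4T1 the same may hold, since the labels leave unclear whether the 0 d cells were also cultured for 4 d.

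Jag1 and Notch2 were the main ligand and receptor mRNA of both lines. Levels were compared between genes as CPM per kilobase of gene length, and the share of a gene is its part of the summed level of its family. Of the ligands Jag1, Jag2, Dll1, Dll3 and Dll4, Jag1 made up 92.0% in sgCT and 94.99% in pLKO NMuMG cells at 0 h, and 84.3% at its lowest in NMuMG, in sgPBRM1 at 24 h, where Dll4 made up 14.99%. In 4T1 pLKO cells without TGFβ1 the ligands were mixed, with Jag1 at 44.7%, Jag2 at 30.8% and Dll1 at 18.9%. The share of Jag1 in 4T1 was 61.2% after 4 d of TGFβ1, 61.1% in untreated shPBRM1 cells and 75.6% in treated shPBRM1 cells. Of the receptors Notch1 to Notch4, Notch1 made up 17.4% in sgCT at 0 h and 0.877% at 72 h, while Notch2 went from 81.8% to 95.7%. In pLKO NMuMG cells the share of Notch1 was 8.52% at 0 h and 0.185% at 72 h, and in the libraries labelled shATF3 it was 5.00% and 1.72%. In 4T1 pLKO cells Notch1 held 27.5% without and 17.4% with TGFβ1. In untreated sgCT cells the order of the levels per kilobase ran from Jag1 (44.4) and Hes1 (35.7) over Notch2 (18.6), Lfng (7.55), Notch1 (3.97), Hey1 (3.55) and Jag2 (3.24) to Nrarp (0.730) and Notch3 (0.0351), with Heyl at 0 counts. In this order Hey1 did not differ from its neighbours Notch1 and Jag2 beyond the spread of the libraries (3.97 ± 0.366, 3.55 ± 0.440 and 3.24 ± 0.157, mean ± SD). In untreated 4T1 pLKO cells Notch2 (17.0), Hes1 (16.2) and Nrarp (14.6) led, followed by Jag1 (8.82), Notch1 (6.47), Jag2 (6.07), Lfng (4.00), Hey1 (0.0859) and Notch3 (0.00983), with Heyl at 0 counts. Notch2 and Hes1 (17.0 ± 0.376 and 16.2 ± 0.767) lay within the spread of each other.

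**Figure D1:**
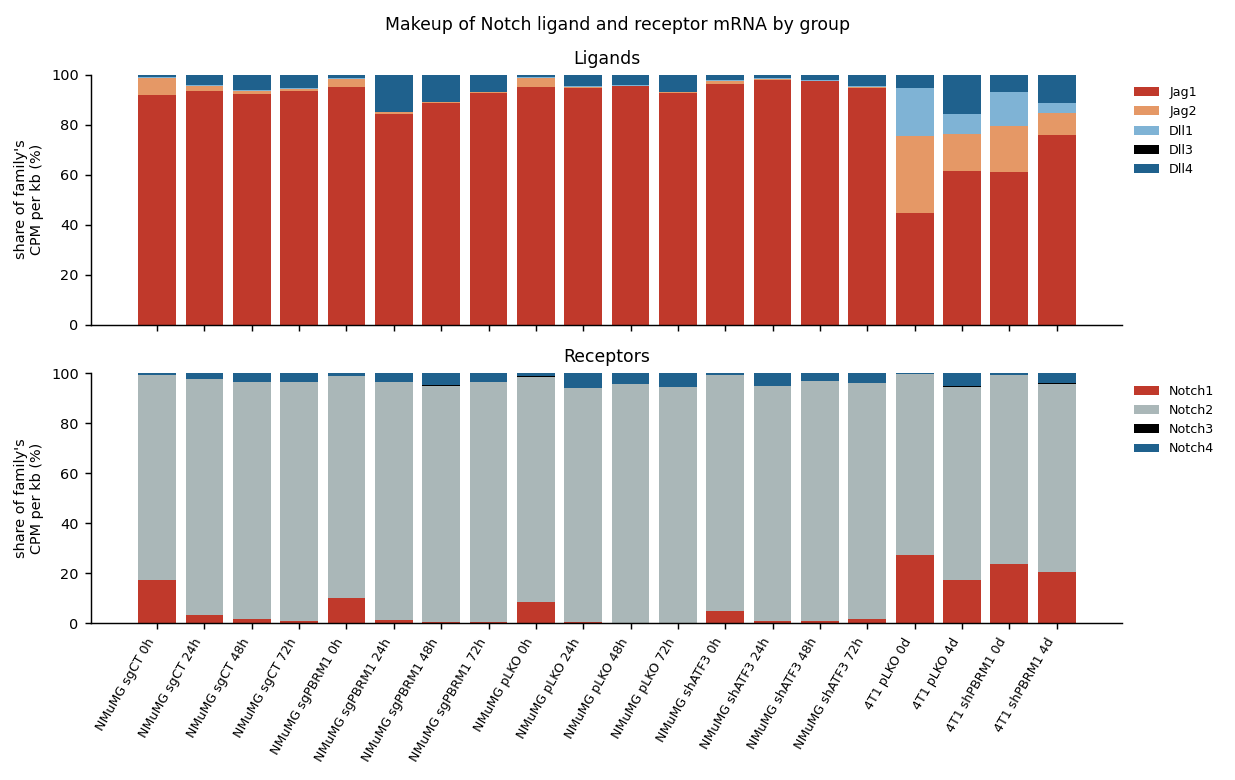
Share (%) of each Notch ligand (top) and receptor (bottom) in the summed CPM per kilobase of its family, as the mean of 3 libraries in each of the 20 groups. Jag1 and Notch2 fill most of each NMuMG bar, and the Notch1 part shrinks from 17.4% to 0.877% in sgCT, while 4T1 bars hold larger parts of Jag2, Dll1 and Notch1.

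How the genes responded to TGFβ1 in control NMuMG cells was the first comparison. In sgCT cells at 72 h against 0 h, Jag1, Notch2 and Lfng rose, and Notch1, Notch3, Jag2, Hes1 and Hey1 fell. These were 8 of the 9 genes tested, in an experiment where 69.3% of all 14345 genes tested passed at an adjusted p under 0.05. Of the 9, 7 passed and changed at least 2-fold, against 22.6% of all genes. In pLKO NMuMG cells of experiment 2, Jag1, Notch2, Nrarp and Lfng rose and Notch1, Jag2 and Hey1 fell, which made 7 of 8 against 58.0% of all genes. There, 5 changed at least 2-fold, against 19.7%. The median log2 fold change of the tested members was −0.23 in sgCT and 0.29 in pLKO, beside 0.00067 and −0.019 over all genes tested, with members that moved in both directions. The plot of levels by time gives each library.

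**Figure D2:**
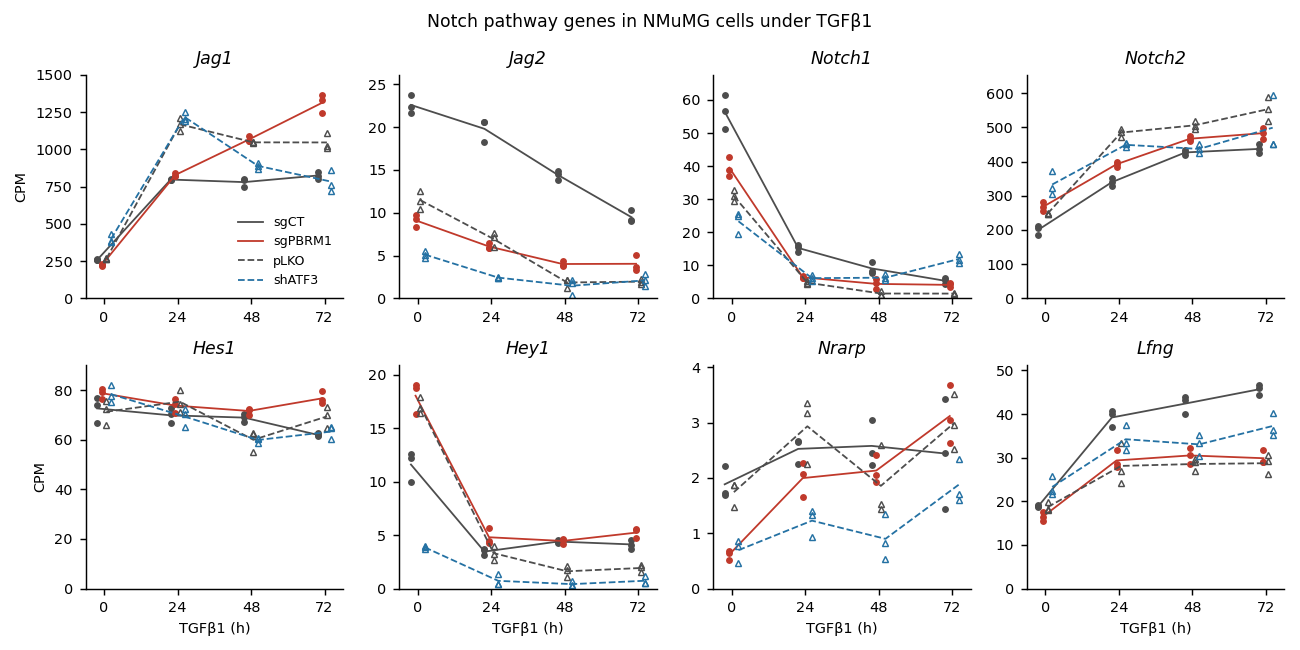
Level (CPM) of 8 Notch pathway genes in NMuMG cells against hours of TGFβ1; points are libraries and lines join the means of 3 libraries, with filled circles and solid lines for experiment 1 (sgCT grey, sgPBRM1 red) and open triangles and dashed lines for experiment 2 (pLKO grey, shATF3 blue). Jag1 rises by 24 h in every line and keeps rising to 72 h in sgPBRM1 (1313 CPM against 825 CPM in sgCT), while Notch1 falls steeply.

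The altered NMuMG cells were compared with their controls before TGFβ1, at 72 h, and in how far they responded. In sgPBRM1 cells 7 of 9 genes passed at 72 h against 0 h (71.1% of all genes), with Jag1, Notch2, Nrarp and Lfng higher and Notch1, Jag2 and Hey1 lower, and 5 of them changed at least 2-fold (24.8%). At 0 h, all 9 tested genes differed between sgPBRM1 and sgCT, beside 45.1% of all genes. Notch2, Notch3, Hes1 and Hey1 were higher and Notch1, Jag1, Jag2, Nrarp and Lfng lower in sgPBRM1. Notch3 passed the filter on low counts only through untreated sgPBRM1 cells, so its place in this count rests on the group where it is high. At 72 h, 6 of 9 differed (49.9%), with Notch2, Notch3, Jag1 and Hes1 higher and Jag2 and Lfng lower in sgPBRM1. The response to 72 h of TGFβ1 differed between the lines, as the interaction term of the fit, for 5 of 9 (27.4%), namely Jag1, Hes1 and Nrarp (larger or less negative in sgPBRM1) and Notch2 and Lfng (smaller). At 24 h it differed for 5 of 9 (18.4%) and at 48 h for 7 of 9 (24.3%), then with Notch1, Notch2, Jag2, Hey1 and Lfng changing further down or less far up in sgPBRM1 and Jag1 and Nrarp further up. In the libraries labelled shATF3 all 8 tested genes passed at 72 h against 0 h (54.4%), and 3 of them, Notch1 not among them, changed at least 2-fold (17.8%). At 0 h, 7 of 8 differed between shATF3 and pLKO (37.0%), with Notch2, Jag1 and Lfng higher in the libraries labelled shATF3 and Notch1, Jag2, Hey1 and Nrarp lower. At 72 h, 4 of 8 differed (30.5%), with Notch1 and Lfng higher and Jag1 and Hey1 lower. The interaction passed for 4 of 8 (12.9%), namely Notch1, Notch2, Jag1 and Jag2, and each of these had a smaller change in the libraries labelled shATF3. It passed for Notch1, Notch2 and Jag1 at 24 h (3 of 8, 18.7%) and at 48 h (3 of 8, 11.6%).

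In 4T1 cells Hes1 and Nrarp were among the genes that rose, and fewer members changed by 2-fold. In pLKO cells after 4 d, Jag1, Notch2, Hes1, Nrarp and Lfng rose and Jag2 fell, 6 of 8 genes tested against 74.5% of all genes. Only Jag1 changed at least 2-fold, 1 of 8 against 16.5%. In shPBRM1 cells 6 of 8 passed (70.0%), with Notch1, Notch2, Jag1, Hes1 and Lfng higher and Jag2 lower, and 0 of 8 changed at least 2-fold (11.2%). Between shPBRM1 and pLKO, 6 of 8 differed without TGFβ1 (51.0%), with Notch2, Jag1, Jag2, Hes1 and Nrarp higher in shPBRM1 and Notch1 lower. With TGFβ1, 6 of 8 differed (55.2%), with Notch1, Jag1, Hes1, Hey1 and Nrarp higher and Notch2 lower. Hey1 passed the filter on low counts only through shPBRM1 libraries, so its place in this count rests on the line where it is high. With TGFβ1 it held 38 counts in shPBRM1 against 8 in pLKO. The interaction passed for 4 of 8 (28.3%), with Notch1 responding more in shPBRM1 and Notch2, Jag1 and Nrarp less. In 4T1 cells the share of members that passed with TGFβ1 was close to that of all genes, so these counts do not set the members apart.

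**Figure D3:**
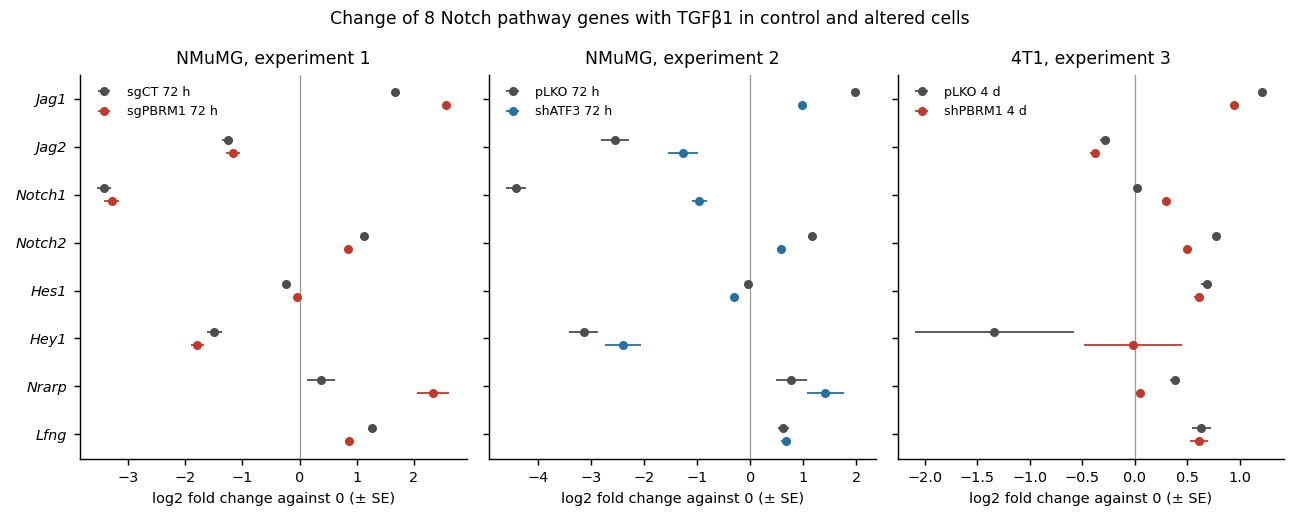
Log2 fold change (± SE) of 8 Notch pathway genes with TGFβ1, at 72 h in NMuMG (left and middle) and at 4 d in 4T1 (right), in control cells (grey) and in PBRM1-altered (red) or shATF3-labelled (blue) cells; each panel has its own horizontal scale. Jag1 lies at 2.55 in sgPBRM1 against 1.67 in sgCT, and Notch1 at −0.97 in the libraries labelled shATF3 against −4.42 in pLKO.

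Jag1 (ENSMUSG00000027276, chromosome 2, 137081456 to 137116644, GRCm38) encodes the Jagged ligand that presents to Notch receptors on neighbouring cells, and it had the highest CPM per kilobase of the members in 15 of the 16 NMuMG groups, all but untreated sgPBRM1, where Hes1 (38.7 ± 1.02) and Jag1 (38.4 ± 0.858) lay within the spread of each other. The 3 sgCT libraries held 256, 263 and 257 CPM at 0 h, 796, 801 and 796 CPM at 24 h, 793, 798 and 750.1 CPM at 48 h and 822, 849 and 803 CPM at 72 h. The sgPBRM1 libraries held 229, 222 and 220.0 CPM at 0 h, 824, 820.0 and 841 CPM at 24 h, 1088, 1055 and 1055 CPM at 48 h and 1246, 1366 and 1329 CPM at 72 h. The lines were close at 24 h, where the difference did not pass (log2 change 0.054, SE 0.0277, adjusted p = 0.104) except with only the groups compared (0.055, adjusted p = 0.0376). At 48 and 72 h every sgPBRM1 library was above every sgCT library. Jag1 rose 3.19-fold in sgCT (log2 change 1.67, SE 0.0296, adjusted p = 1.62e-49) and 5.87-fold in sgPBRM1 (log2 change 2.55, SE 0.0300, adjusted p = 5.8e-59). In sgPBRM1 it rose from 24 to 48 h (log2 change 0.36, SE 0.0277, adjusted p = 1.52e-17), a step in which 4 of 9 members and 47.6% of all genes passed. It rose again from 48 to 72 h (log2 change 0.30, SE 0.0274, adjusted p = 4.49e-14), where it was the 1 member of 9 to pass against 36.8% of all genes. In a fit of these 2 groups alone, or without sgPBRM1 72 h replicate 3, Nrarp passed as well, which made 2 of 9. Jag1 was lower in sgPBRM1 at 0 h (log2 change −0.21, SE 0.0307, adjusted p = 6.31e-08) and higher at 72 h (log2 change 0.67, SE 0.0277, adjusted p = 1.78e-29). The response differed by 0.88 on the log2 scale (SE 0.0413, adjusted p = 6.41e-26). It differed already at 24 h, by 0.26 (SE 0.0414, adjusted p = 1.28e-06), and at 48 h, by 0.66 (SE 0.0413, adjusted p = 2.89e-20).

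In experiment 2, the mean level of Jag1 was highest at 24 h in both lines. The pLKO libraries held 266, 265 and 268 CPM at 0 h, 1126, 1168 and 1211 CPM at 24 h, 1048, 1052 and 1042 CPM at 48 h and 1021, 1011 and 1108 CPM at 72 h. The fall from 24 to 48 h in pLKO (log2 change −0.16, SE 0.0546, adjusted p = 0.0392) did not pass with a replicate block (adjusted p = 0.0501). It did not pass either when pLKO 24 h replicate 2 or 3, or any 1 of the 3 pLKO libraries at 48 h, was left out (adjusted p = 0.069 to 0.136). The libraries labelled shATF3 began higher, at 431, 376 and 388 CPM, reached 1207, 1194 and 1252 CPM at 24 h, and held 871, 891 and 906 CPM at 48 h and 722, 863 and 764 CPM at 72 h. They lay above pLKO at 0 h (log2 change 0.58, SE 0.0555, adjusted p = 2.91e-09) and below it at 72 h (log2 change −0.42, SE 0.0548, adjusted p = 9.41e-07), with no overlap of libraries at either time. From 24 to 48 h Jag1 fell in the libraries labelled shATF3 (log2 change −0.45, SE 0.0548, adjusted p = 4.45e-07), a step in which 2 of 8 members and 20.3% of all genes passed. The second was Hes1 (log2 change −0.21, SE 0.0664, adjusted p = 0.0236), which did not pass with library totals alone (adjusted p = 0.0665). It did not pass either when shATF3 24 h replicate 1 or 2, or any 1 of the 3 shATF3 libraries at 48 h, was left out (adjusted p = 0.0517 to 0.14). The count was then 1 of 8. Without shATF3 48 h replicate 1 it stayed at 2, since Jag2 passed there. The rise over 72 h was 3.93-fold in pLKO (log2 change 1.98, SE 0.0570, adjusted p = 2.34e-21) and 1.97-fold in the libraries labelled shATF3 (log2 change 0.98, SE 0.0555, adjusted p = 1.32e-14). The difference of the responses was −0.999 (SE 0.0780, adjusted p = 3.3e-10). Without the 2 libraries that stood apart, left out in turn, it was −1.08 without replicate 2 at 72 h and −0.94 without replicate 1 at 0 h. The difference was −0.52 (SE 0.0778, adjusted p = 1.37e-05) at 24 h and −0.82 (SE 0.0779, adjusted p = 1.64e-08) at 48 h.

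In 4T1 cells, Jag1 was higher in both PBRM1 knockdown groups than in their controls. The pLKO libraries held 50.9, 51.6 and 51.8 CPM without TGFβ1 and 114, 128 and 115 CPM after 4 d, and the shPBRM1 libraries 139, 138 and 129 CPM and 258, 255 and 266 CPM. The 4 groups did not overlap, although the highest treated pLKO library (128.4 CPM) nearly met the lowest untreated shPBRM1 library (128.6 CPM). The knockdown difference was 2.63-fold without TGFβ1 (log2 change 1.39, SE 0.0408, adjusted p = 3.6e-24) and 2.17-fold with it (log2 change 1.12, SE 0.0360, adjusted p = 1.51e-23). TGFβ1 raised Jag1 by 1.22 in pLKO (SE 0.0412) and by 0.94 in shPBRM1 (SE 0.0355) on the log2 scale, with an interaction of −0.27 (SE 0.0545, adjusted p = 0.000212). The NMuMG knockout and the 4T1 knockdown were not tested against each other.

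Jag2 (ENSMUSG00000002799, chromosome 12, 112907819 to 112929776), the second Jagged ligand, fell with TGFβ1 in every line. It stood at 21.6, 23.8 and 22.4 CPM in sgCT at 0 h and at 10.3, 8.98 and 9.16 CPM at 72 h, and at 9.74, 8.31 and 9.30 CPM and 3.37, 5.11 and 3.63 CPM in sgPBRM1. Every sgPBRM1 library was below every sgCT library at both times, and untreated sgPBRM1 cells were near treated sgCT cells. The difference was 2.47-fold at 0 h (log2 change −1.31, SE 0.0925, adjusted p = 1.81e-18) and 2.33-fold at 72 h (log2 change −1.22, SE 0.129, adjusted p = 3.26e-12). The responses of −1.25 and −1.17 gave an interaction of 0.086 at 72 h (SE 0.162, adjusted p = 0.763). At the earlier times Jag2 fell further in sgPBRM1, with an interaction of −0.54 (SE 0.155, adjusted p = 0.00626) at 48 h and −0.41 (SE 0.143, adjusted p = 0.0369) at 24 h. The 24 h value did not pass with no filter on low counts (−0.42, adjusted p = 0.0569), with DESeq2 (−0.40, adjusted p = 0.0536), without sgCT 0 h replicate 1 (−0.38, adjusted p = 0.0803), sgCT 0 h replicate 3 (−0.40, adjusted p = 0.0616), sgCT 24 h replicate 2 (−0.38, adjusted p = 0.083), sgCT 24 h replicate 3 (−0.38, adjusted p = 0.0827), sgPBRM1 0 h replicate 1 (−0.36, adjusted p = 0.107), sgPBRM1 0 h replicate 3 (−0.39, adjusted p = 0.0736), sgPBRM1 24 h replicate 1 (−0.38, adjusted p = 0.0936) or sgPBRM1 24 h replicate 2 (−0.38, adjusted p = 0.0922). In experiment 2, Jag2 stood at 11.4, 12.6 and 10.5 CPM in pLKO and 5.12, 4.66 and 5.57 CPM in the libraries labelled shATF3 at 0 h, and at 1.66, 2.23 and 1.97 CPM and 2.09, 1.42 and 2.79 CPM at 72 h. The groups were apart at 0 h (log2 change −1.17, SE 0.237, adjusted p = 0.000261) and overlapped at 72 h (log2 change 0.11, SE 0.315, adjusted p = 0.841). The interaction was 1.28 (SE 0.394, adjusted p = 0.0292), and it no longer passed without pLKO 0 h replicate 1 (1.27, adjusted p = 0.0511), pLKO 0 h replicate 2 (1.20, adjusted p = 0.0691), pLKO 72 h replicate 1 (1.17, adjusted p = 0.0785), pLKO 72 h replicate 3 (1.28, adjusted p = 0.0512), shATF3 0 h replicate 2 (1.21, adjusted p = 0.0652), shATF3 72 h replicate 1 (1.28, adjusted p = 0.0501) or shATF3 72 h replicate 3 (1.01, adjusted p = 0.146). In 4T1 Jag2 fell from 42.2 ± 1.27 CPM to 34.6 ± 1.31 CPM in pLKO (log2 change −0.29, SE 0.0474, adjusted p = 1.87e-06) and from 48.3 ± 0.865 CPM to 37.1 ± 1.62 CPM in shPBRM1 (log2 change −0.38, SE 0.0455, adjusted p = 3.81e-09). It was higher in shPBRM1 without TGFβ1 (log2 change 0.19, SE 0.0452, adjusted p = 0.000505). At 4 d the groups overlapped (log2 change 0.099, SE 0.0477, adjusted p = 0.0795), and the difference passed with DESeq2 size factors (RLE) (0.11, adjusted p = 0.0471), with library totals alone (0.16, adjusted p = 0.0051), without pLKO 4 d replicate 3 (0.13, adjusted p = 0.0378) or shPBRM1 4 d replicate 1 (0.13, adjusted p = 0.0349).

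Notch1 (ENSMUSG00000026923, chromosome 2, 26457903 to 26516663), the receptor best known from T cell development and leukaemia, had the largest fall of the tested members in sgCT and pLKO NMuMG cells at 72 h. The sgCT libraries held 61.5, 56.8 and 51.1 CPM at 0 h, 15.6, 16.3 and 13.9 CPM at 24 h, 7.70, 11.1 and 8.39 CPM at 48 h and 5.53, 6.05 and 4.34 CPM at 72 h. The sgPBRM1 libraries held 38.8, 42.7 and 37.0 CPM at 0 h, 6.28, 6.67 and 6.16 CPM at 24 h, 4.58, 2.72 and 5.82 CPM at 48 h and 4.67, 3.29 and 4.25 CPM at 72 h. The sgPBRM1 libraries were all lower at 0, 24 and 48 h, and the groups overlapped at 72 h. Notch1 fell 10.7-fold in sgCT (log2 change −3.41, SE 0.115, adjusted p = 6.84e-35) and 9.74-fold in sgPBRM1 (log2 change −3.28, SE 0.124, adjusted p = 1.52e-32). Untreated sgPBRM1 cells had less of it than untreated sgCT cells (log2 change −0.52, SE 0.0818, adjusted p = 3.35e-07). At 72 h the difference was −0.39 (adjusted p = 0.068) and passed with library totals alone (−0.43, adjusted p = 0.043), without sgCT 72 h replicate 3 (−0.53, adjusted p = 0.0223) or sgPBRM1 72 h replicate 1 (−0.50, adjusted p = 0.0386). The difference between the lines was wider at 24 h (log2 change −1.25, SE 0.129, adjusted p = 1.57e-12) and 48 h (log2 change −1.05, SE 0.152, adjusted p = 2.99e-08) than at 0 h, as the interactions of −0.74 (SE 0.154, adjusted p = 0.000209) and −0.54 (SE 0.175, adjusted p = 0.017) show. The 48 h interaction did not pass with DESeq2 (−0.53, adjusted p = 0.111), without sgCT 48 h replicate 2 (−0.38, adjusted p = 0.136) or sgPBRM1 48 h replicate 2 (−0.32, adjusted p = 0.203). At 72 h the interaction was 0.13 (SE 0.198, adjusted p = 0.697).

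In experiment 2, Notch1 parted between the lines as TGFβ1 went on. In pLKO it stood at 29.3, 30.9 and 32.6 CPM at 0 h, 4.40, 4.66 and 5.17 CPM at 24 h, 2.18, 1.06 and 1.13 CPM at 48 h and 1.60, 1.28 and 1.43 CPM at 72 h. In the libraries labelled shATF3 it stood at 24.9, 19.6 and 25.4 CPM at 0 h, 6.10, 6.92 and 5.31 CPM at 24 h, 6.02, 5.44 and 7.30 CPM at 48 h and 11.6, 13.5 and 10.7 CPM at 72 h. The shATF3-labelled libraries were all lower at 0 h and all higher at 24, 48 and 72 h, although the difference at 24 h did not pass (log2 change 0.36, SE 0.173, adjusted p = 0.118). From 24 to 48 h Notch1 fell in pLKO (log2 change −1.69, SE 0.214, adjusted p = 7.92e-07), a step in which 5 of 8 members and 21.4% of all genes passed. From 48 to 72 h it rose in the libraries labelled shATF3 (log2 change 0.92, SE 0.157, adjusted p = 7.86e-05), where 3 of 8 members and 21.6% of all genes passed. The other two of that step were Jag1 (log2 change −0.18, SE 0.0548, adjusted p = 0.016) and Nrarp (adjusted p = 0.0207). Without shATF3 48 h replicate 3 neither passed (adjusted p = 0.0611 and 0.145). Neither passed in a fit of these 2 groups alone (0.0563 and 0.083). Either change left 1 of 8. Over 72 h Notch1 fell 21.4-fold in pLKO (log2 change −4.42, SE 0.185, adjusted p = 1.16e-17) and 1.95-fold in the libraries labelled shATF3 (log2 change −0.97, SE 0.141, adjusted p = 1.4e-06). At 72 h it was 8.25-fold higher in them than in pLKO (log2 change 3.04, SE 0.197, adjusted p = 2.69e-12). The responses differed by 3.45 (SE 0.240, adjusted p = 2.83e-11). It was 3.35 without shATF3 72 h replicate 2 and 3.50 without shATF3 0 h replicate 1. The difference of the responses was 2.51 (SE 0.246, adjusted p = 2.52e-08) at 48 h and 0.77 (SE 0.218, adjusted p = 0.0124) at 24 h, which did not pass without shATF3 24 h replicate 2 (0.66, adjusted p = 0.0564). The lower level at 0 h (log2 change −0.41, SE 0.133, adjusted p = 0.016) did not pass without pLKO 0 h replicate 3 (−0.36, adjusted p = 0.0707) or shATF3 0 h replicate 2 (−0.29, adjusted p = 0.131).

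In 4T1 cells Notch1 changed by 0.30 on the log2 scale at most with TGFβ1. It stood at 96.0, 91.4 and 88.8 CPM and 97.3, 93.5 and 89.2 CPM in pLKO without and with TGFβ1, which overlap (log2 change 0.020, SE 0.0400, adjusted p = 0.661). In shPBRM1 it stood at 82.5, 84.8 and 78.7 CPM and 95.2, 106 and 101 CPM, which do not overlap (log2 change 0.30, SE 0.0398, adjusted p = 4.43e-08). The interaction was 0.28 (SE 0.0564, adjusted p = 0.000267). Notch1 was lower in shPBRM1 without TGFβ1 (log2 change −0.17, SE 0.0404, adjusted p = 0.00063). With it, the difference of 0.11 (adjusted p = 0.0212) did not pass without pLKO 4 d replicate 3 (0.077, adjusted p = 0.131), shPBRM1 4 d replicate 2 (0.071, adjusted p = 0.157) or shPBRM1 4 d replicate 3 (0.097, adjusted p = 0.0593).

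Notch2 (ENSMUSG00000027878, chromosome 3, 98013527 to 98150361), the receptor whose mRNA was the most abundant of the family in each group, rose with TGFβ1 in every line. In sgCT it stood at 212, 204 and 186 CPM at 0 h and 436, 451 and 424 CPM at 72 h, and in sgPBRM1 at 280.5, 266 and 256 CPM and 467, 498 and 485 CPM. Untreated sgPBRM1 libraries were all above untreated sgCT libraries. The rise was 1.12 in sgCT and 0.85 in sgPBRM1 on the log2 scale, with an interaction of −0.27 (SE 0.0483, adjusted p = 9.04e-06), after −0.21 at 24 h and −0.28 at 48 h. Notch2 was higher in sgPBRM1 at 0 h (log2 change 0.41, SE 0.0352, adjusted p = 2.49e-15) and at 72 h (log2 change 0.15, SE 0.0330, adjusted p = 0.000177). In experiment 2, Notch2 stood at 249.6, 248 and 246 CPM in pLKO at 0 h and 552, 519.7 and 588 CPM at 72 h. In the libraries labelled shATF3 it stood at 371, 306 and 322 CPM and 452, 595 and 450.4 CPM, so that replicate 2 at 72 h lay apart from the other two, as it did over all genes. The rise was 1.16 in pLKO and 0.58 in the libraries labelled shATF3, with an interaction of −0.57 (SE 0.106, adjusted p = 0.000299), after −0.54 at 24 h and −0.64 at 48 h. Notch2 was higher in them at 0 h (log2 change 0.43, SE 0.0756, adjusted p = 5.32e-05). At 72 h the groups overlapped (log2 change −0.15, SE 0.0749, adjusted p = 0.142), and the difference passed with no filter on low counts (−0.16, adjusted p = 0.0267) or without shATF3 72 h replicate 2 (−0.30, adjusted p = 0.000246). In 4T1 Notch2 rose from 183 ± 4.06 CPM to 313 ± 15.8 CPM in pLKO (log2 change 0.77, SE 0.0330, adjusted p = 6.61e-21) and from 199 ± 3.10 CPM to 281 ± 11.5 CPM in shPBRM1 (log2 change 0.50, SE 0.0328, adjusted p = 1.77e-15). The interaction was −0.28 (SE 0.0465, adjusted p = 2.11e-05). Notch2 was higher in shPBRM1 without TGFβ1 (log2 change 0.12, SE 0.0336, adjusted p = 0.00332) and lower with it (log2 change −0.16, SE 0.0321, adjusted p = 0.0001). In each altered line Notch2 thus began higher and rose less than in its own control.

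Notch3 (ENSMUSG00000038146, chromosome 17, 32120820 to 32166880), a receptor known from vascular smooth muscle, was close to the limit of detection, with 0 to 16 counts per library in experiment 1, 0 to 9 in experiment 2 and 1 to 8 in experiment 3. The 3 sgCT libraries together held 16 counts at 0 h and 3 counts at 72 h, a ratio of 4.94 with an exact 95% counting interval of 1.42 to 26.5. At 72 h sgPBRM1 held 21 counts against 3 in sgCT, a ratio of 6.33 (1.89 to 33.1), although its 3 libraries ranged from 0.112 to 0.685 CPM and overlapped those of sgCT. The intervals cover counting error only. Notch3 was kept by the filter on low counts only through untreated sgPBRM1 cells, whose 3 libraries held 16, 12 and 14 counts. Its higher level there is thus tied to the filter. The fall in sgCT (adjusted p = 0.0246) did not pass with no filter on low counts (adjusted p = 0.0526), without sgCT 0 h replicate 2 (adjusted p = 0.0579), sgCT 0 h replicate 3 (adjusted p = 0.056), sgCT 72 h replicate 2 (adjusted p = 0.119) or sgCT 72 h replicate 3 (adjusted p = 0.0601). The higher level in sgPBRM1 at 0 h, 0.719 ± 0.105 CPM against 0.282 ± 0.0678 CPM (adjusted p = 0.0215), did not pass with no filter on low counts (1.34, adjusted p = 0.0764), with DESeq2 (1.35, adjusted p = 0.0533), without sgCT 0 h replicate 1 (1.14, adjusted p = 0.0959) or sgPBRM1 0 h replicate 1 (1.21, adjusted p = 0.0773). That at 72 h (adjusted p = 0.00481) did not pass without sgPBRM1 72 h replicate 1 (adjusted p = 0.0604). The fall in sgPBRM1 (log2 change −0.82, SE 0.471, adjusted p = 0.111) passed with library totals alone (−1.01, adjusted p = 0.0468) or without sgPBRM1 72 h replicate 1 (−1.37, adjusted p = 0.0294).

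Among the target genes, Hes1 (ENSMUSG00000022528, chromosome 16, 30064384 to 30067796), a transcriptional repressor and the most widely used readout of Notch activity, changed by less than 2-fold in every NMuMG line at 72 h. It stood at 67.0, 76.9 and 74.2 CPM in sgCT at 0 h and at 62.6, 61.5 and 62.0 CPM at 72 h, a fall of 1.17-fold (log2 change −0.23, SE 0.0461, adjusted p = 1.56e-05). In sgPBRM1 the groups overlapped, with 76.6, 79.4 and 80.6 CPM at 0 h and 74.7, 76.0 and 79.7 CPM at 72 h (log2 change −0.038, SE 0.0439, adjusted p = 0.447). Scaled by library totals alone, that value was −0.23 (adjusted p = 7.2e-06), under a scaling that also moved the median of all genes to −0.19. At 72 h Hes1 was higher in sgPBRM1 (log2 change 0.31, SE 0.0463, adjusted p = 7.75e-08), with no overlap. The difference at 0 h (log2 change 0.12, SE 0.0437, adjusted p = 0.0221) did not pass without sgCT 0 h replicate 1 (0.061, adjusted p = 0.308), sgPBRM1 0 h replicate 2 (0.11, adjusted p = 0.0596) or sgPBRM1 0 h replicate 3 (0.10, adjusted p = 0.0973). The interaction of 0.19 (SE 0.0637, adjusted p = 0.0186) did not pass with library totals alone (0.12, adjusted p = 0.158), without sgCT 0 h replicate 2 (0.15, adjusted p = 0.0937), sgCT 72 h replicate 2 (0.17, adjusted p = 0.0616), sgCT 72 h replicate 3 (0.17, adjusted p = 0.058), sgPBRM1 0 h replicate 1 (0.17, adjusted p = 0.0533) or sgPBRM1 72 h replicate 3 (0.14, adjusted p = 0.111). In experiment 2 Hes1 stood at 71.4 ± 4.89 CPM and 69.5 ± 4.18 CPM in pLKO (log2 change −0.040, SE 0.0655, adjusted p = 0.622, which passed with library totals alone (−0.20, adjusted p = 0.0116)) and fell from 78.5 ± 3.39 CPM to 63.4 ± 2.53 CPM in the libraries labelled shATF3 (log2 change −0.31, SE 0.0659, adjusted p = 0.000253). At 24 h the interaction of −0.25 (SE 0.0924, adjusted p = 0.0558) did not pass. It passed with DESeq2 size factors (adjusted p = 0.047), with library totals alone (0.0196) and with DESeq2 (0.0368). It also passed when replicate 1 of pLKO 0 h, shATF3 0 h or shATF3 24 h, or replicate 3 of pLKO 24 h, was left out (adjusted p = 0.031 to 0.0424). At 72 h the interaction of −0.27 (SE 0.0929, adjusted p = 0.0581) passed with DESeq2 (−0.27, adjusted p = 0.0391), without pLKO 0 h replicate 1 (−0.32, adjusted p = 0.035), pLKO 72 h replicate 2 (−0.32, adjusted p = 0.0287) or shATF3 0 h replicate 1 (−0.30, adjusted p = 0.0446).

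In 4T1 cells Hes1 rose instead. It held 33.0, 31.5 and 34.6 CPM in untreated and 49.5, 57.2 and 52.4 CPM in treated pLKO cells, and 48.9, 50.9 and 50.1 CPM and 77.0, 74.4 and 77.8 CPM in shPBRM1. Treated and untreated libraries were apart in both lines, and so were the lines at either time. TGFβ1 raised it 1.61-fold in pLKO (log2 change 0.68, SE 0.0490, adjusted p = 1.2e-14) and 1.53-fold in shPBRM1 (log2 change 0.61, SE 0.0438, adjusted p = 1.71e-14). Hes1 was higher in shPBRM1 without TGFβ1 (log2 change 0.60, SE 0.0492, adjusted p = 2.33e-12) and with it (log2 change 0.53, SE 0.0436, adjusted p = 2.21e-12). The interaction was −0.072 (SE 0.0659, adjusted p = 0.463).

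Hey1 (ENSMUSG00000040289, chromosome 3, 8663359 to 8667256), a repressor of the Hairy family that Notch induces with Hes1, fell within 24 h of TGFβ1 in all NMuMG lines. The sgCT libraries held 12.6, 12.2 and 9.95 CPM at 0 h, 3.13, 3.65 and 3.58 CPM at 24 h and 4.52, 4.12 and 3.74 CPM at 72 h, and the sgPBRM1 libraries 19.0, 18.7 and 16.4 CPM, 4.47, 4.25 and 5.67 CPM and 5.55, 5.44 and 4.70 CPM. Hey1 was higher in sgPBRM1 before TGFβ1 (log2 change 0.64, SE 0.0989, adjusted p = 2.19e-07). At 72 h the libraries did not overlap but the difference did not pass (log2 change 0.34, SE 0.149, adjusted p = 0.0516), except without sgCT 72 h replicate 1 (0.40, adjusted p = 0.0452) or sgPBRM1 72 h replicate 3 (0.40, adjusted p = 0.0378). It fell 2.81-fold in sgCT (log2 change −1.49, SE 0.129, adjusted p = 6.81e-16) and 3.45-fold in sgPBRM1 (log2 change −1.79, SE 0.114, adjusted p = 1.95e-21). The interaction was −0.29 at 72 h (SE 0.180, adjusted p = 0.241), and at 48 h the larger fall in sgPBRM1 passed, at −0.62 (SE 0.177, adjusted p = 0.00588). In experiment 2 Hey1 stood at 16.8, 16.4 and 17.9 CPM in pLKO and 3.96, 3.66 and 3.93 CPM in the libraries labelled shATF3 at 0 h, a 4.43-fold difference (log2 change −2.15, SE 0.243, adjusted p = 5.89e-08). After 72 h of TGFβ1 they held 2.23, 1.56 and 1.97 CPM and 1.20, 0.472 and 0.513 CPM. The shATF3-labelled libraries were the lower ones at both times (log2 fold change at 72 h −1.41, SE 0.374, adjusted p = 0.00451), and the log2 fold changes were −3.15 (SE 0.267) in pLKO and −2.41 (SE 0.340) in them. At 72 h the 3 libraries labelled shATF3 together held only 36 counts of Hey1. In 4T1 Hey1 had 0 to 18 counts per library and at most 0.690 CPM. It was kept by the filter on low counts only through shPBRM1 libraries, with at most 0.386 CPM in any pLKO library. Its difference between shPBRM1 and pLKO at 4 d (log2 change 2.05, SE 0.665, adjusted p = 0.00764) did not pass without pLKO 4 d replicate 1 (1.46, adjusted p = 0.063) or shPBRM1 4 d replicate 2 (1.68, adjusted p = 0.0546). The change with TGFβ1 in pLKO (log2 change −1.34, SE 0.756, adjusted p = 0.0997) passed without pLKO 4 d replicate 3 (−2.17, adjusted p = 0.0389).

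Heyl (ENSMUSG00000032744, chromosome 4, 123233556 to 123249875), the third Hey gene, was not detected or barely detected in either line. It had 0 counts in 18 of 24 libraries of experiment 1, 19 of 24 of experiment 2 and 12 of 12 of experiment 3, with 3 counts at most in any library. The 0 of 304.6 M counts in 4T1 allow a level of up to 0.00985 CPM over all 12 libraries (3 counts; counting error only).

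Nrarp (ENSMUSG00000078202, chromosome 2, 25180758 to 25183339), a small ankyrin-repeat protein that Notch induces and that in turn dampens the Notch nuclear complex, had low counts in NMuMG. The sgCT libraries held 1.74, 2.23 and 1.69 CPM at 0 h and 2.45, 3.43 and 1.45 CPM at 72 h, and the sgPBRM1 libraries 0.677, 0.522 and 0.646 CPM and 3.05, 3.68 and 2.63 CPM. Every sgPBRM1 library was below every sgCT library at 0 h, and the groups overlapped at 72 h. Nrarp was 3.03-fold lower in sgPBRM1 at 0 h (log2 change −1.60, SE 0.307, adjusted p = 1.27e-05). At 72 h the difference was 0.36 (adjusted p = 0.193), which passed without sgCT 72 h replicate 2 (0.68, adjusted p = 0.0263). It rose 5.03-fold in sgPBRM1 (log2 change 2.33, SE 0.284, adjusted p = 8.85e-11). The change in sgCT (log2 change 0.37, SE 0.244, adjusted p = 0.173) passed without sgCT 72 h replicate 3 (0.64, adjusted p = 0.0199). The responses differed by 1.96 (SE 0.384, adjusted p = 3.8e-05), on 10 to 67 counts per library. From 48 to 72 h, the change of Nrarp in sgPBRM1 (log2 change 0.55, SE 0.231, adjusted p = 0.0539) did not pass. It passed in a fit of those 2 groups alone (0.54, adjusted p = 0.0474) and without sgPBRM1 72 h replicate 3 (0.66, adjusted p = 0.0356). The responses differed by 1.33 (SE 0.391, adjusted p = 0.00708) at 48 h and 1.25 (SE 0.394, adjusted p = 0.0165) at 24 h, which did not pass without sgCT 0 h replicate 2 (1.12, adjusted p = 0.0537) or sgPBRM1 0 h replicate 2 (1.15, adjusted p = 0.0551). In experiment 2 Nrarp was 2.48-fold lower in the libraries labelled shATF3 at 0 h (log2 change −1.31, SE 0.345, adjusted p = 0.00333), with 0.853, 0.761 and 0.469 CPM against 1.87, 1.88 and 1.48 CPM. It rose in them (log2 change 1.42, SE 0.349, adjusted p = 0.00103). Its rise in pLKO (log2 change 0.77, SE 0.297, adjusted p = 0.0275) did not pass with library totals alone (0.61, adjusted p = 0.0749), without pLKO 0 h replicate 3 (0.68, adjusted p = 0.089) or pLKO 72 h replicate 3 (0.65, adjusted p = 0.107).

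In 4T1 cells, whose table was scaled separately, Nrarp was at 39.2, 36.5 and 37.1 CPM in untreated and 50.2, 48.2 and 48.7 CPM in treated pLKO cells. Untreated shPBRM1 cells held 60.4, 54.0 and 59.6 CPM and treated ones 61.9, 55.6 and 62.1 CPM, which overlap. Nrarp was thus higher in untreated shPBRM1 than in treated pLKO cells. TGFβ1 raised it in pLKO (log2 change 0.38, SE 0.0502, adjusted p = 2.43e-08), and the change in shPBRM1 was 0.046 (adjusted p = 0.377). The interaction was −0.34 (SE 0.0678, adjusted p = 0.00024). The knockdown difference was 1.54-fold without TGFβ1 (log2 change 0.62, SE 0.0490, adjusted p = 6.87e-13) and 1.22-fold with it (log2 change 0.29, SE 0.0467, adjusted p = 2.76e-06). The antisense gene Gm38287 covers 2051 of the 2582 exonic bases of Nrarp. Its counts were 0 in every NMuMG library and 0 to 5 in 4T1, where the library kit keeps strand. Whether the counting used strand is not known here, and whether the overlap lowered the Nrarp counts of either line was not tested.

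**Figure D4:**
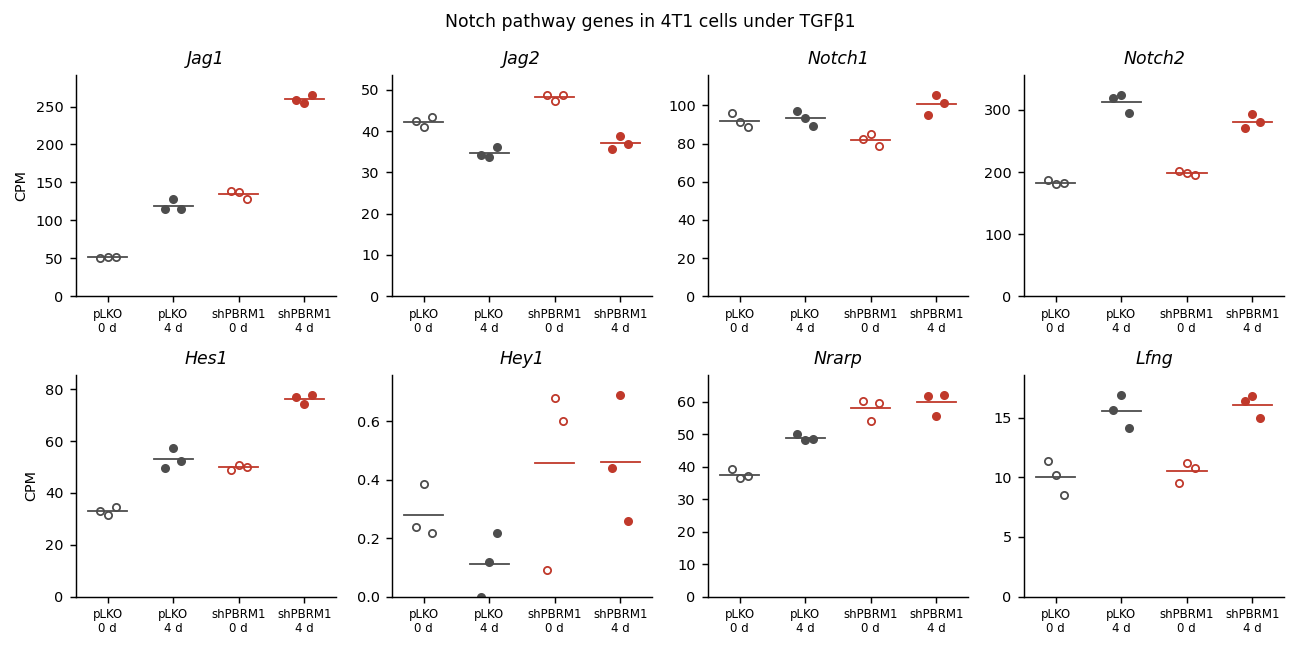
Level (CPM) of 8 Notch pathway genes in 4T1 cells labelled pLKO (grey) and shPBRM1 (red), without TGFβ1 (0 d, open circles) and after 4 d (filled circles); points are libraries and bars the mean of 3. Jag1 and Hes1 rise with TGFβ1 in both lines and are higher in shPBRM1 at either time, and Hey1 stays under 1 CPM.

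Lfng (ENSMUSG00000029570, chromosome 5, 140607320 to 140615545) encodes Lunatic fringe, the Golgi glycosyltransferase that adds a sugar to Notch receptors and shifts their preference from Jagged to Delta-like ligands. It rose in every line. The sgCT libraries held 18.7, 19.0 and 19.1 CPM at 0 h, 37.0, 40.6 and 40.0 CPM at 24 h and 44.3, 46.0 and 46.6 CPM at 72 h, and the sgPBRM1 libraries 16.3, 15.5 and 17.6 CPM, 31.7, 27.9 and 28.5 CPM and 29.0, 31.7 and 28.9 CPM. At 0, 24 and 72 h, every sgPBRM1 library was below every sgCT library. The rise was 2.42-fold in sgCT (log2 change 1.27, SE 0.0658, adjusted p = 1.22e-25) and 1.81-fold in sgPBRM1 (log2 change 0.86, SE 0.0704, adjusted p = 8.65e-17). The interaction was −0.42 (SE 0.0974, adjusted p = 0.000586), and Lfng was lower in sgPBRM1 at 72 h (log2 change −0.61, SE 0.0622, adjusted p = 1.06e-12). The interaction at 48 h of −0.28 (SE 0.0968, adjusted p = 0.0279) did not pass with no filter on low counts (−0.28, adjusted p = 0.0602), without sgCT 0 h replicate 1 (−0.27, adjusted p = 0.0607), sgCT 0 h replicate 2 (−0.27, adjusted p = 0.0511), sgCT 48 h replicate 3 (−0.26, adjusted p = 0.0627), sgPBRM1 0 h replicate 3 (−0.22, adjusted p = 0.132) or sgPBRM1 48 h replicate 1 (−0.26, adjusted p = 0.06). The difference at 0 h (log2 change −0.20, SE 0.0748, adjusted p = 0.0272) did not pass with library totals alone (−0.17, adjusted p = 0.0599), with no filter on low counts (−0.19, adjusted p = 0.0729), without sgCT 0 h replicate 2 (−0.20, adjusted p = 0.058), sgCT 0 h replicate 3 (−0.19, adjusted p = 0.0627), sgPBRM1 0 h replicate 1 (−0.19, adjusted p = 0.0669) or sgPBRM1 0 h replicate 2 (−0.16, adjusted p = 0.136). In experiment 2 Lfng rose from 18.6 ± 0.976 CPM to 28.7 ± 2.17 CPM in pLKO (log2 change 0.63, SE 0.103, adjusted p = 7.28e-06) and from 23.3 ± 2.24 CPM to 37.3 ± 2.57 CPM in the libraries labelled shATF3 (log2 change 0.68, SE 0.100, adjusted p = 1.73e-06). It was higher in the libraries labelled shATF3 at 72 h (log2 change 0.38, SE 0.0995, adjusted p = 0.00469). The difference at 0 h (log2 change 0.32, SE 0.103, adjusted p = 0.0145) did not pass without pLKO 0 h replicate 2 (0.30, adjusted p = 0.0521) or shATF3 0 h replicate 2 (0.25, adjusted p = 0.0957). In 4T1 it rose from 10.0 ± 1.46 CPM to 15.6 ± 1.40 CPM in pLKO (log2 change 0.63, SE 0.0908, adjusted p = 1.4e-07) and from 10.5 ± 0.877 CPM to 16.1 ± 0.957 CPM in shPBRM1 (log2 change 0.61, SE 0.0883, adjusted p = 1.96e-07). The 4T1 lines overlapped at both times, with differences of 0.069 (adjusted p = 0.584) and 0.045 (adjusted p = 0.673).

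Beyond the 10 genes, 55 further genes of the pathway were counted in 9 classes, and 46 of them were tested in each NMuMG experiment and 48 in 4T1. With TGFβ1, 30 rose and 12 fell in sgCT at 72 h, beside 69.3% of all genes that passed. In pLKO NMuMG cells 26 rose and 7 fell (58.0% of all genes), and in 4T1 pLKO cells 25 rose and 12 fell at 4 d (74.5%), a share close to that of all genes. The 9 genes of receptor cleavage, which include Furin and the γ-secretase subunits, had 7 higher and 0 lower in sgCT (69.3% of all genes passed), 7 and 0 in pLKO NMuMG (58.0%) and 5 and 0 in 4T1 pLKO (74.5%). Of the ligands, Dll4, a Delta-like ligand known from sprouting vessels, rose from 1.63 ± 0.299 CPM to 32.4 ± 0.176 CPM in sgCT (log2 fold change 4.30, SE 0.112, adjusted p = 1.11e-40) and from 4.19 ± 0.710 CPM to 20.4 ± 1.11 CPM in 4T1 pLKO (2.27, SE 0.103, adjusted p = 3.95e-20). The receptor Notch4, known from endothelium, rose from 1.24 ± 0.588 CPM to 11.8 ± 1.97 CPM in sgCT (3.25, SE 0.189, adjusted p = 2.23e-23) and from 0.628 ± 0.276 CPM to 16.1 ± 2.24 CPM in 4T1 pLKO (4.69, SE 0.169, adjusted p = 5.33e-23). The endothelial markers Pecam1, Cdh5, Kdr, Tie1 and Tek together stayed at or below 1.28 CPM in the same libraries. Dlk2, a non-canonical ligand, fell in sgCT (−4.32, SE 0.273, adjusted p = 1.11e-21) and in 4T1 pLKO (−3.52, SE 0.132, adjusted p = 1.85e-22). Among genes of ligand and receptor turnover, the ubiquitin ligase gene Neurl1b fell from 106 ± 1.15 CPM to 5.70 ± 1.23 CPM in sgCT (−4.22, SE 0.0851, adjusted p = 1.87e-46), whereas Deltex 4 (Dtx4) rose from 15.1 ± 1.26 CPM to 183 ± 5.41 CPM (3.60, SE 0.0471, adjusted p = 2.97e-56). The coactivator Maml2 rose in sgCT and in 4T1 pLKO (1.57, SE 0.0591, adjusted p = 2.07e-32 and 1.35, SE 0.0570, adjusted p = 4.97e-21).

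The same further genes also differed between altered and control cells without TGFβ1. In sgPBRM1, 22 of 46 were higher and 10 lower than in sgCT at 0 h, beside 45.1% of all genes that differed. In the libraries labelled shATF3 20 of 46 were higher and 7 lower than in pLKO (37.0%), and in 4T1 shPBRM1 19 of 48 were higher and 14 lower (51.0%). Dll4 was higher in each of the 3, by 0.53, 1.45 and 1.27 on the log2 scale (adjusted p = 0.0216, 1e-07 and 2.8e-11). In experiment 2 this order did not last under TGFβ1. The share of Dll4 among the ligands at 0 h was 2.21% in the libraries labelled shATF3 and 1.17% in pLKO. It was 1.38% and 4.44% at 24 h, and 4.75% and 6.88% at 72 h. After 72 h of TGFβ1, 17 of 46 were higher and 8 lower in sgPBRM1 than in sgCT (49.9% of all genes), and 10 were higher and 9 lower in the libraries labelled shATF3 than in pLKO (30.5%). Of the 9 cleavage genes, 3 were then higher and 1 lower in sgPBRM1, and 5 were higher and 1 lower in the libraries labelled shATF3. After 4 d of TGFβ1, 4T1 shPBRM1 cells had 8 of 48 higher and 23 lower than pLKO cells, with 0 of the 9 cleavage genes higher and 6 lower, beside 55.2% of all genes that differed in either direction. The lines were not tested against each other.

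The genes most like each member were taken over the 20 group means, by Pearson's r of log2(CPM + 1) after each experiment's mean was subtracted, among 10778 genes; these points share their libraries and depth, and 16 of the 20 are NMuMG groups. Notch2 was most like Tgfb1 (r = 0.979) and Coro6 (0.978), and Jag1 most like Ppp1r18 (0.961) and Klf13 (0.956). Notch1 was most like Eml4 and Arhgef16 (both 0.946), Jag2 like Ccdc149 (0.945) and Sf3b2 (0.942), Hey1 like the pseudogene Gstp-ps (0.938, whose reads other Gstp genes can share) and Ctdspl (0.936), and Lfng like Ogfr and Eif2ak3 (both 0.934). Hes1 (Samd14, 0.897) and Nrarp (Fbxl17, 0.852) had lower values at best. Among the members themselves, r was 0.868 between Jag1 and Notch2 and −0.833 between Notch1 and Notch2, and that of Hes1 with each other member lay between −0.037 and 0.306.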

How the data were processed

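Per the file headers, the authors deposited raw counts of reads per gene for 60 RNA-seq libraries, in 1 table for each of 3 experiments, with a gene length column that was used only for CPM per kilobase. Per the submitters' processing notes, Trim Galore 0.6.7, HISAT2, STAR 2.7.10a, DESeq2, edgeR and build mm10 were used; which aligner made which table, and whether the counting used strand, are not given in the sources used here. Per the labels' protocols, the 4T1 libraries came from a stranded kit. The tables held 0 unused sample columns.

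Genes were kept with filterByExpr (minimum count 10, minimum total 15) and scaled with TMM. Each experiment was fitted with all its groups in edgeR 4.0.16 (R 4.3.3), and quasi-likelihood tests were adjusted over all genes tested by Benjamini-Hochberg, with 0.05 as the threshold. Adjusted p-values, log2 fold changes and standard errors in the text come from this fit unless another is named. The response of an altered line was compared with that of its control as an interaction term. Coordinates of genes are in GRCm38, and promoter windows are from RefSeq (GRCm38.p6). The fit was tested on simulated counts with the same spread for all genes, in which few genes changed, as many up as down. That setting is simpler than these data, where most genes passed with TGFβ1 at the last time. The members and lists were chosen with earlier results of these data known. Beyond the 10 members, genes of the wider list were named where they passed with at least a 2-fold change or where their class held 3 genes or fewer, and the 2 genes most like a member by their rank. Alternatives were DESeq2 size factors, library totals alone, no filter, a replicate block, DESeq2 1.42.0, only the groups compared, and leaving out each library.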

Additional observations from a re-analysis of the deposited data

Results flagged for a closer look

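The response to TGFβ1 differed between an altered line and its control in 31 tests of the difference itself, each an interaction term of the edgeR quasi-likelihood fit at an adjusted p under 0.05. At 72, 48 and 24 h of experiment 1 it passed for 5, 7 and 5 of 9 members, beside 27.4%, 24.3% and 18.4% of all genes. For experiment 2 these were 4, 3 and 3 of 8 members, beside 12.9%, 11.6% and 18.7%. For experiment 3 it was 4 of 8, beside 28.3%. In experiment 1 at 72 h, sgPBRM1 minus sgCT, the log2 difference of the responses was −0.27 for Notch2, 0.88 for Jag1, 0.19 for Hes1, 1.96 for Nrarp and −0.42 for Lfng. At 48 h of experiment 1 it was −0.54 for Notch1, −0.28 for Notch2, 0.66 for Jag1, −0.54 for Jag2, −0.62 for Hey1, 1.33 for Nrarp and −0.28 for Lfng. At 24 h of experiment 1 it was −0.74 for Notch1, −0.21 for Notch2, 0.26 for Jag1, −0.41 for Jag2 and 1.25 for Nrarp. In experiment 2 at 72 h, libraries labelled shATF3 minus pLKO, the log2 difference of the responses was 3.45 for Notch1, −0.57 for Notch2, −0.999 for Jag1 and 1.28 for Jag2. At 48 h of experiment 2 it was 2.51 for Notch1, −0.64 for Notch2 and −0.82 for Jag1. At 24 h of experiment 2 it was 0.77 for Notch1, −0.54 for Notch2 and −0.52 for Jag1. In experiment 3 at 4 d, shPBRM1 minus pLKO, the log2 difference of the responses was 0.28 for Notch1, −0.28 for Notch2, −0.27 for Jag1 and −0.34 for Nrarp. Alternatives that ended some of these calls are named beside the values of each gene. What lies behind these differences was not tested.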

How the results depend on the processing

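For each of the 15 counts of members called at 72 h, at 4 d or before TGFβ1, no alternative moved the count by more than 1.5 times. Counts for some other comparisons moved further, and 3 of these, steps between times, are given with Jag1 and Notch1. From 48 to 72 h in pLKO NMuMG cells, the 1 member called was Hes1. It did not pass with library totals alone (adjusted p = 0.0523), no filter (0.0577) or only the groups compared (0.0733). Between shATF3 and pLKO at 48 h, Notch2 and Nrarp did not pass without pLKO 48 h replicate 2 (adjusted p = 0.112 and 0.16). Neither passed without shATF3 48 h replicate 1 or 3 (0.0599 to 0.139). Leaving out 1 library gave 7 to 8 members for sgCT at 72 h, 7 to 8 for sgPBRM1 against sgCT at 0 h, 5 to 7 for shATF3 against pLKO at 0 h, 3 to 5 for the interaction in experiment 2, and 4 to 7 for shPBRM1 against pLKO at 4 d. Among 329 results of single members, no direction reversed where the main fit or the alternative passed. Reversals where neither passed were not counted. A call changed for 17 of the 329 results with library totals alone, 12 with no filter on low counts and 4 with DESeq2 size factors. With DESeq2 it changed for 7 of 325, and with only the groups compared for 8 of 314. Leaving out 1 library changed 57 of the 329, and 62 changed under at least 1 alternative. Library totals alone moved the median log2 fold change of all genes to −0.12 in sgCT, −0.19 in sgPBRM1, −0.18 in pLKO and −0.16 in the libraries labelled shATF3 at 72 h.

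The replicate numbers were not taken to pair the libraries, since correlations over 0.1 in every pair were required: correlations of same-numbered libraries ran from −0.027 to 0.045 in experiment 1, −0.14 to 0.091 in experiment 2 and −0.032 to 0.061 in experiment 3, and 19 of 24, 7 of 24 and 4 of 12 libraries correlated best with their own number, so experiment 1 gives a hint of pairing, from the data and not from the design. A replicate block left each of the 15 counts as it was (8 for sgCT at 72 h) and ended 1 call, the fall of Jag1 from 24 to 48 h in pLKO (−0.16, adjusted p = 0.0501), which leaving out any of 5 single libraries also ended. The depth limits Notch3, Heyl, 4T1 Hey1, NMuMG Nrarp and, after TGFβ1, Hey1 in the libraries labelled shATF3, which rest on few counts.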
